A study of Mus musculus with 9 samples.

Results

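Lung organoids grown from smoke-exposed mice were compared at day 14 and day 5 of culture, to ask which transcripts were higher or lower in the later structures than in the earlier ones. The comparison used 6 of the 9 arrays of the series, assigned by the culture day and exposure in their labels: 3 arrays of day 14 organoids, called CSD14, and 3 arrays of day 5 organoids, called CSD5. The remaining 3 arrays, ND14, hold day 14 organoids of unexposed mice and serve here as a further group in the fit and as a level to read beside the others. CSD14 and CSD5 came from male BALB/c mice that had breathed cigarette smoke for 12 weeks, and the ND14 donors had no smoke, with no genetic change in any group. The age given, 8 to 12 weeks, is that of the mice taken to set up the model, so the donors were older when tissue was collected. Organoids were started from protease-digested lung whose epithelium was scraped, with red cells lysed, and were embedded in a basement membrane gel (growth factor-reduced Matrigel), so the starting suspension was not sorted and other lung cells could be carried along. Day 5 fell in the proliferation medium with 5% serum and day 14 in the differentiation medium with 2% serum and inhibitors of ROCK and of the TGF-β receptor in some cultures, so the time in culture and the medium cannot be told apart. Each array was made from 10 ng of total RNA on the Affymetrix Mouse Gene 2.0 ST platform, which covers each transcript with many short probes and reports 1 value per transcript cluster. The labels call the arrays biological replicates, and no source used here ties them to separate animals or cultures. The p-values therefore reflect only how far these arrays spread, which may be technical.

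One array stood apart. CSD5 replicate 1 correlated with the ND14 arrays at a mean r of 0.991 across transcript clusters, with the CSD14 arrays at 0.963 and with the other CSD5 arrays at 0.973. CSD5 replicates 2 and 3 were closer to the CSD14 arrays, at mean r of 0.982 and 0.977, than to the ND14 arrays, at 0.970 and 0.964. The label of CSD5 replicate 1 is therefore in doubt, and whether the library was swapped or mislabelled was not tested. All arrays were kept under their labels, so each CSD5 value of replicate 1 and each fit of all arrays rests on that label, and the tests are given again without this array. Values are log2 signals, in which 1 unit is a factor of 2, and a log2 fold change is the CSD14 mean minus the CSD5 mean. Array medians were 2.87 to 2.99 in CSD14, 2.79 to 2.97 in CSD5 and 2.91 to 3.04 in ND14, so a gene near 3 lay at the middle of all transcript clusters, where probes give little signal above background. Wherever 3 values are given for a group they are those of replicates 1, 2 and 3.

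The organoids carried epithelial transcripts throughout. Epcam, a surface adhesion protein of epithelia, had log2 signals of 8.38, 8.29 and 8.26 in CSD14, against 8.0, 8.40 and 8.08 in CSD5, at 0.15 ± 0.12 (SE; limma adjusted p = 0.6) and 0.07 ± 0.13 without CSD5 replicate 1 (0.784). Nkx2-1, the transcription factor that marks lung epithelium, had 5.05, 5.23 and 4.87 in CSD14, against 4.61, 4.74 and 4.63 in CSD5, at 0.39 ± 0.12 (adjusted p = 0.143) and 0.36 ± 0.14 without that array (0.177). Ptprc, the pan-leukocyte CD45, had 2.76, 2.35 and 2.57 in CSD14, against 2.83, 3.28 and 2.98 in CSD5, at -0.47 ± 0.15 (adjusted p = 0.151) and -0.57 ± 0.15 without it (0.0748). Pecam1, an endothelial adhesion protein, had 2.36, 2.30 and 2.54 in CSD14, against 2.51, 2.51 and 2.51 in CSD5, at -0.11 ± 0.10 (adjusted p = 0.651) and -0.11 ± 0.12 without it (0.622). Both lay near or under the array medians. These arrays measure whole organoid cultures, in which fewer cells of a type and less RNA per cell cannot be told apart.

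As background, the alveolar surface is covered by type 2 (AT2) cells, which make surfactant and renew the epithelium, and by flat type 1 (AT1) cells that exchange gas. The conducting airway is lined by club and goblet cells, which secrete protective proteins and mucus, and by multiciliated cells, whose beating cilia move that mucus, above basal cells that act as their progenitors. Epithelial cells in culture can also take a squamous course, in which they make the keratins and envelope proteins of stratified skin-like epithelium.

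Across 34472 transcript clusters, 660 (1.91%) were higher and 171 (0.496%) were lower in CSD14 than in CSD5 at a limma adjusted p under 0.05. Without CSD5 replicate 1 the fit called 988 higher (2.87%) and 429 lower (1.24%), and 728 clusters were called in both fits. The ND14 arrays and the moderation of the spread bore on these counts, as a fit of only the 6 arrays compared called 115 higher and 26 lower and a fit without moderation 148 and 34. Scaling moved this split. After median centring 452 were higher and 288 lower, and after quantile normalization 529 were higher and 324 lower. The median log2 fold change of all clusters was 0.09 as deposited, 0.14 without CSD5 replicate 1, 0.02 after centring and 0.00333 after quantile normalization. At the study's thresholds, an unadjusted p under 0.05 and a change over 2-fold, 330 clusters were higher (0.957%) and 287 lower (0.833%), and without CSD5 replicate 1 these were 294 (0.853%) and 272 (0.789%). Reduced to 1 cluster per gene, 549 of 22180 named genes rose (2.48%) and 153 fell (0.69%), and without CSD5 replicate 1 these were 786 (3.54%) and 360 (1.62%). In both fits 473 genes rose and 143 fell. The CSD14 and CSD5 arrays did not overlap for any of the 702 called genes, a state also found for 15.5% of all genes on the higher side and 5.19% on the lower side, and for 31.2% and 8.04% without CSD5 replicate 1. The genes that fell moved farther, with a median absolute log2 fold change of 1.32 and 56 of 153 over 4-fold, against 0.86 and 12 of 549 for those that rose. Leaving out CSD5 replicate 1 made these 1.05 and 70 of 360 for those that fell, against 0.78 and 15 of 786 for those that rose.

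The fit without CSD5 replicate 1 and each fit that left out another array are drawn in the plot of calls by array. The number of higher clusters was smallest without CSD14 replicate 1, at 174, and the number of lower clusters was smallest in that same fit, at 49. Without CSD5 replicate 3 the counts were 258 and 115, without CSD14 replicates 2 and 3 they were 296 and 69, then 221 and 55, and without ND14 replicates 1 and 3 they were 318 and 91, then 384 and 104. In all 9 such fits 169 of the 702 genes passed, 126 higher and 43 lower, and they are called below genes that passed with any array left out.

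**Figure D1:**
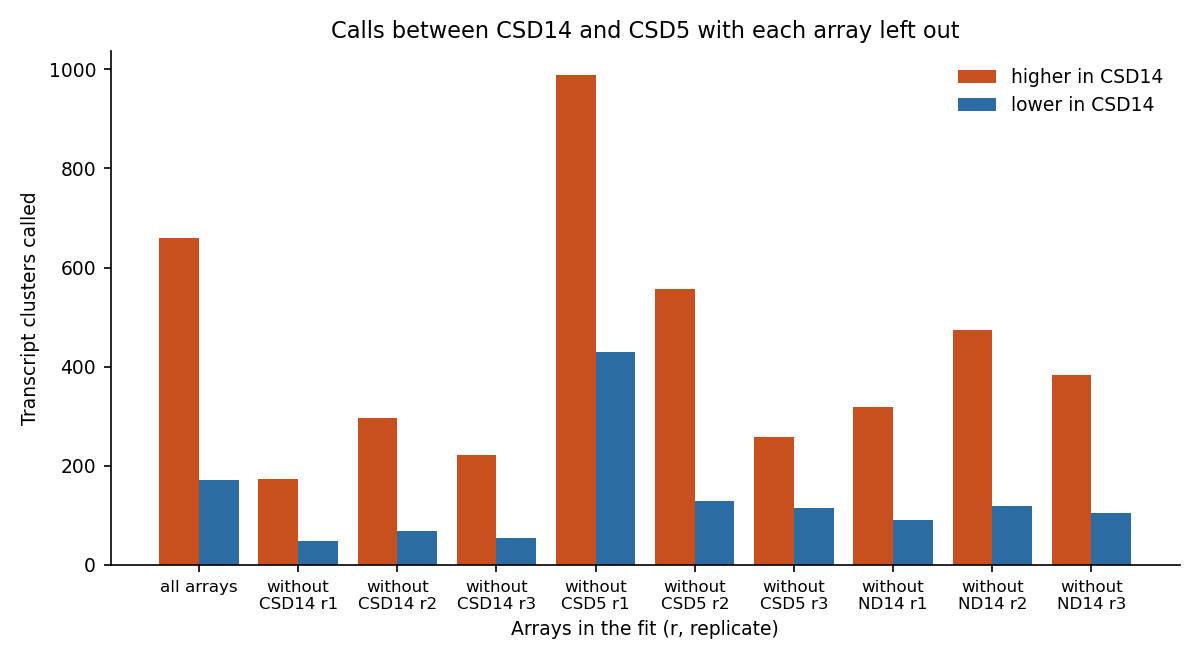
Number of transcript clusters called higher (left bar) and lower (right bar) in CSD14 than in CSD5 at a limma adjusted p under 0.05, with all arrays and with each of the 9 arrays left out. The fit without CSD5 replicate 1 calls the most, 988 and 429, and the fit without CSD14 replicate 1 the fewest, 174 and 49.

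The position of CSD5 replicate 1 differed from one set of genes to another. Among the 549 genes that rose it lay below the other CSD5 arrays for 250, between them for 170 and above them for 129. Among the 153 that fell it lay above the other CSD5 arrays for 99 and below them for 38. That array was in the fit that chose these genes, and among genes called without it the position was different. It then lay below the other CSD5 arrays for 239 and above them for 394 of 786 that rose, and below them for 189 and above them for 158 of 360 that fell. The gene lists, 40 lists of cell type markers and pathways with 1007 distinct measured genes, are drawn in the plot of list levels. Of those genes 72 rose and 48 fell, each counted once, and without CSD5 replicate 1 these were 113 and 117. Each list count below is to be read beside the shares over all genes, 2.48% higher and 0.69% lower. Without CSD5 replicate 1 those shares were 3.54% and 1.62%.

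**Figure D2:**
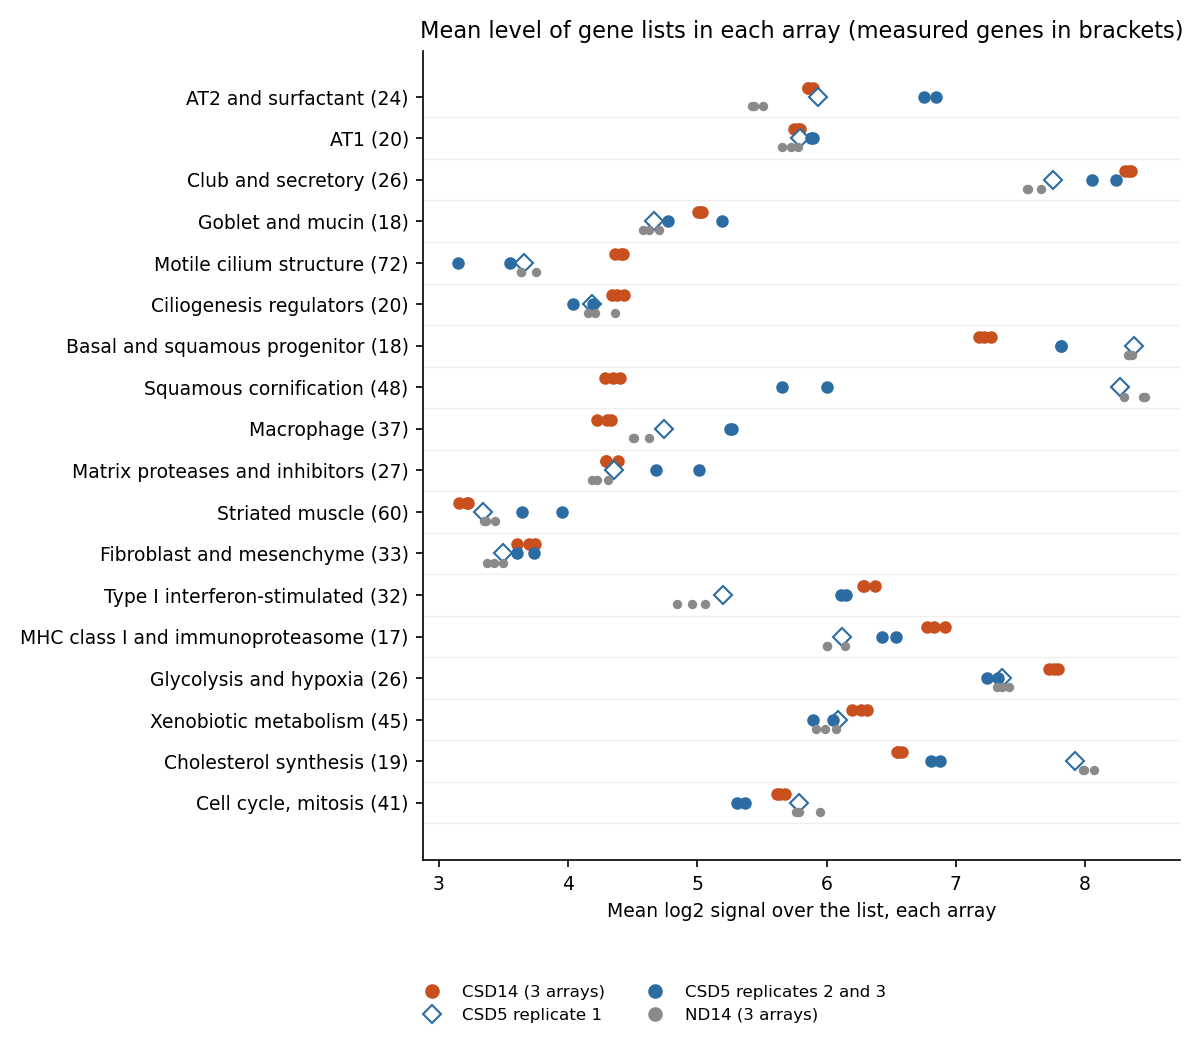
Mean log2 signal (horizontal axis) of 18 gene lists in each array, with CSD14 above, CSD5 in the middle and ND14 below in each row, the open diamond for CSD5 replicate 1 and the number of measured genes in brackets. CSD5 replicate 1 sits near ND14 for the squamous and cholesterol lists and near CSD14 for the AT2 list, and all 3 CSD14 arrays lie above all 3 CSD5 arrays for the motile cilium and glycolysis lists.

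Surfactant protein C was 1 of 3 genes on the AT2 list that fell in CSD14. The others were Napsa and Fasn, a fatty acid synthase that was also on the fatty acid list and is described there. None of the 24 AT2 genes rose, 3 fell and 21 missed the threshold, where 2.48% of all genes rose and 0.69% fell. The median log2 fold change was -0.46, where that of all genes was 0.09. Without CSD5 replicate 1, 1 rose and 12 fell, where 3.54% and 1.62% of all genes did, and the median was -0.68. Sftpc, the surfactant protein made only by AT2 cells, had log2 signals of 4.55, 4.25 and 3.95 in CSD14, against 9.49, 11.29 and 11.49 in CSD5. All CSD5 arrays lay far above all CSD14 arrays, with CSD5 replicate 1 the lowest of its group, and the ND14 mean was 5.77. Sftpc fell by 6.51 ± 0.43 (SE) on the log2 scale (limma, adjusted p = 0.000356), with -7.14 ± 0.17 without CSD5 replicate 1 (2.84e-07), and it passed with any array left out.

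Napsa, the aspartic protease that processes surfactant protein B, had 2.80, 2.64 and 2.54 in CSD14, against 4.01, 5.91 and 5.90 in CSD5. It fell by 2.61 ± 0.42 (adjusted p = 0.0151) and had -3.25 ± 0.12 without CSD5 replicate 1 (3.02e-06), and the call was lost without CSD5 replicate 3 or any 1 CSD14 array, where the adjusted p reached 0.0677. Lamp3, a lamellar body membrane protein, had 2.59, 2.76 and 2.94 in CSD14, against 3.22, 4.75 and 4.32 in CSD5, a log2 fold change of -1.33 ± 0.31 (adjusted p = 0.0623) that passed only without CSD5 replicate 1, at -1.77 ± 0.16 (0.000415). Slc34a2, the phosphate transporter of AT2 cells, had 6.54, 6.59 and 6.55 in CSD14, against 6.96, 8.46 and 8.47 in CSD5, at -1.40 ± 0.34 (adjusted p = 0.0672) and -1.91 ± 0.12 without CSD5 replicate 1 (5.11e-05). For both genes CSD5 replicate 1 lay within 1 log2 unit of the CSD14 arrays and the other CSD5 arrays lay higher.

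The other surfactant proteins, which club cells also make, were not called with all arrays. Sftpd, a collectin of innate defence, had 8.96, 8.59 and 8.63 in CSD14, against 6.62, 8.06 and 7.51 in CSD5, with no overlap, at 1.33 ± 0.30 (adjusted p = 0.0505) and 0.94 ± 0.18 without CSD5 replicate 1 (0.0234). Sftpb, needed for the surface film, had 7.08, 7.09 and 6.96 in CSD14, against 5.62, 6.96 and 7.09 in CSD5, at 0.49 ± 0.33 (adjusted p = 0.513) and 0.02 ± 0.15 without CSD5 replicate 1 (0.954). Sftpa1, also a collectin, had 5.83, 5.85 and 5.73 in CSD14, against 5.78, 7.67 and 7.83 in CSD5, at -1.29 ± 0.44 (adjusted p = 0.186) and -1.95 ± 0.15 without CSD5 replicate 1 (0.00019). Without CSD5 replicate 1, then, Sftpa1 fell with Sftpc, and Sftpd rose. Which cells these differences came from was not tested.

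Of 20 AT1 genes, 2 rose and 0 fell, where 2.48% and 0.69% of all genes did, with a median of -0.06. Without CSD5 replicate 1, 2 rose and 2 fell, where 3.54% and 1.62% of all genes did, with a median of -0.02. Cav1, the coat protein of caveolae, had 6.5, 6.41 and 6.01 in CSD14, against 5.03, 4.63 and 4.34 in CSD5. It rose by 1.64 ± 0.19 (adjusted p = 0.00341), by 1.82 ± 0.16 without CSD5 replicate 1 (0.000472), and passed with any array left out. Ager, the receptor that marks the AT1 membrane, ran the other way, with 2.89, 3.0 and 3.06 in CSD14, against 3.73, 5.58 and 6.38 in CSD5, at -2.25 ± 0.53 (adjusted p = 0.0624) and -3.0 ± 0.25 without CSD5 replicate 1 (0.000281). Aqp5, the water channel, was high everywhere, with 11.15, 11.10 and 11.22 in CSD14, against 10.54, 11.26 and 11.08 in CSD5, at 0.20 ± 0.17 (adjusted p = 0.622) and -0.01 ± 0.12 without CSD5 replicate 1 (0.959). Krt8, a keratin of simple epithelia that is also high in cells passing between AT2 and AT1 states, had 8.88, 8.85 and 8.88 in CSD14, against 8.22, 8.38 and 8.06 in CSD5, and was the only 1 of 13 transitional genes to rise. It rose by 0.65 ± 0.12 (adjusted p = 0.0269), by 0.65 ± 0.14 without CSD5 replicate 1 (0.0337), and the call was lost without CSD5 replicate 3, any 1 CSD14 array or ND14 replicate 1, where the adjusted p reached 0.103.

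**Figure D3:**
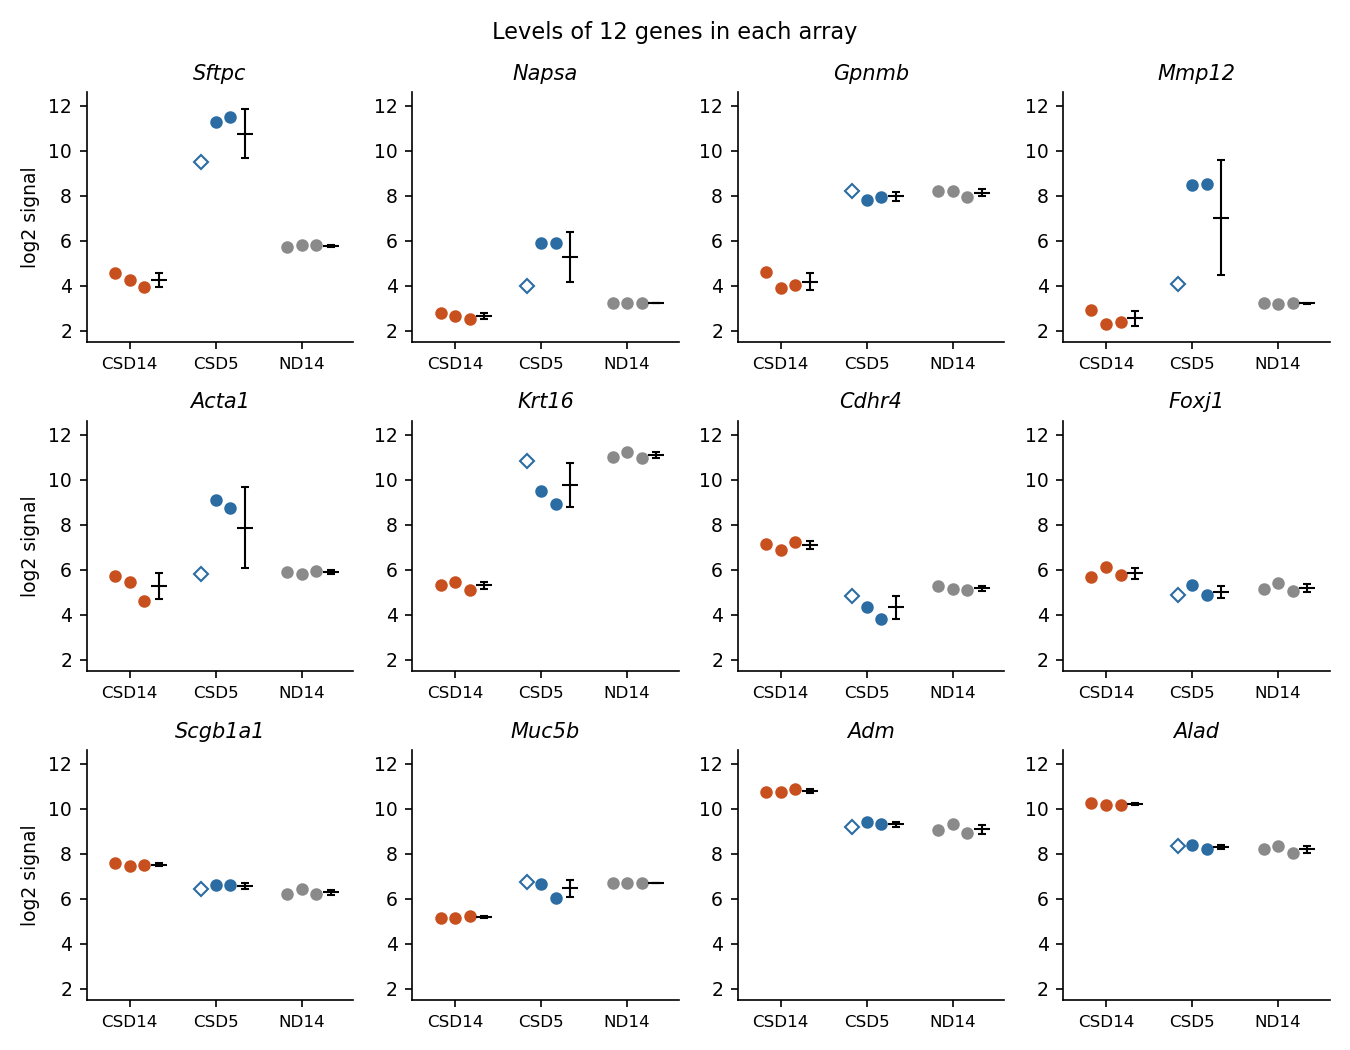
Log2 signal of 12 genes in each array of CSD14, CSD5 and ND14, with the open diamond for CSD5 replicate 1 and a bar for the group mean ± SD (n = 3). Sftpc and Gpnmb are lower, and Cdhr4, Scgb1a1, Adm and Alad higher, in all CSD14 arrays than in all CSD5 arrays, whereas CSD5 replicate 1 lies near CSD14 for Acta1 and Mmp12.

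Of 37 macrophage genes, 9 fell, 0 rose and 28 were not called, where 0.69% of all genes fell and 2.48% rose. The median log2 fold change was -0.47. Without CSD5 replicate 1, 18 fell and 1 rose, where 1.62% and 3.54% of all genes did, with a median of -0.57. Only 2 of the 9 passed with any array left out, and the number called was 2 without CSD14 replicate 1 or 3, 3 without CSD14 replicate 2, 4 without CSD5 replicate 3 or ND14 replicate 1 or 3, and 5 without CSD5 replicate 2 or ND14 replicate 2. The list mean was 4.30, 4.22 and 4.33 in CSD14, against 4.74, 5.27 and 5.25 in CSD5. Gpnmb, a lysosomal glycoprotein of lipid-laden macrophages that other cells also make, had 4.62, 3.92 and 4.03 in CSD14, against 8.20, 7.81 and 7.93 in CSD5, with an ND14 mean of 8.12. All 3 CSD5 arrays lay far above all 3 CSD14 arrays for this gene, and it fell by 3.79 ± 0.19 (adjusted p = 0.00013), with -3.68 ± 0.20 without CSD5 replicate 1 (3.6e-05), and passed with any array left out. Gpnmb did not follow Mmp12, Ctss and Csf1r, described next, whose ND14 means were only 3.23, 3.91 and 3.39. Fabp4, further on, was high in ND14 as Gpnmb was, at a mean of 9.38.

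Mmp12, the elastin-degrading protease of macrophages, had 2.93, 2.32 and 2.41 in CSD14, against 4.08, 8.47 and 8.51 in CSD5. The 2 CSD5 arrays other than replicate 1 were far above every other array, as the ND14 mean was 3.23. Mmp12 fell by 4.47 ± 0.96 (adjusted p = 0.0439) and had -5.94 ± 0.17 without CSD5 replicate 1 (9.71e-07), and leaving out any other array ended the call, with the adjusted p at up to 0.143. Ctss, the lysosomal protease cathepsin S, had 4.29, 4.44 and 4.44 in CSD14, against 5.67, 8.21 and 8.02 in CSD5. It fell by 2.91 ± 0.54 (adjusted p = 0.0277) and had -3.73 ± 0.16 without CSD5 replicate 1 (7.87e-06), with the call again lost without any other array (up to 0.114). Csf1r, the receptor for the growth factor that macrophages need, had 3.08, 2.86 and 3.13 in CSD14, against 3.75, 4.71 and 4.49 in CSD5, and fell by 1.29 ± 0.22 (adjusted p = 0.0208), with -1.58 ± 0.15 without CSD5 replicate 1 (0.000636), with the call lost without CSD5 replicate 3 or any 1 CSD14 array (up to 0.0843). Marco, a scavenger receptor of alveolar macrophages, stayed at 2.51, 2.68 and 2.62 in CSD14, against 2.62, 2.75 and 2.62 in CSD5, all under the array medians, at -0.06 ± 0.10 (adjusted p = 0.821) and -0.08 ± 0.12 without CSD5 replicate 1 (0.72).

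Other members of the list stood differently. Fabp4, a fatty acid carrier, had 2.83, 3.19 and 3.32 in CSD14, against 9.0, 5.62 and 5.62 in CSD5, with an ND14 mean of 9.38, so CSD5 replicate 1 was the highest CSD5 array. It fell by 3.63 ± 0.74 (adjusted p = 0.0374), with -2.51 ± 0.17 without CSD5 replicate 1 (0.000102), and lost the call without any 1 CSD14 or ND14 array (up to 0.143). Cybb, the catalytic subunit of the phagocyte oxidase, had 7.71, 7.47 and 7.82 in CSD14, against 4.90, 7.60 and 7.77 in CSD5, with an ND14 mean of 3.17. Of the 6 arrays compared only CSD5 replicate 1 was low. The log2 fold change was 0.91 ± 0.62 (adjusted p = 0.515) and -0.02 ± 0.17 without that array (0.961).

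Among 27 matrix proteases and their inhibitors only Mmp12 was called, as lower, where 0.69% of all genes were lower. Without CSD5 replicate 1, 5 fell, where 1.62% of all genes did. Mmp9, gelatinase B, had 3.73, 3.73 and 3.30 in CSD14, against 3.73, 5.36 and 4.95 in CSD5, at -1.09 ± 0.35 (adjusted p = 0.162) and -1.57 ± 0.21 without CSD5 replicate 1 (0.00407). Mmp3, stromelysin 1, had 3.33, 3.42 and 3.49 in CSD14, against 2.75, 7.43 and 5.73 in CSD5, at -1.89 ± 0.89 (adjusted p = 0.337) and -3.17 ± 0.39 without that array (0.00277). CSD5 replicate 1 lay within the CSD14 range for Mmp9 and below it for Mmp3.

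Few chemokines, secreted proteins that draw leukocytes, were called, and none passed with any array left out. Of 31 measured, 3 rose and 1 fell, where 2.48% and 0.69% of all genes did. Without CSD5 replicate 1, 3 rose and 7 fell, where 3.54% and 1.62% of all genes did. Ccl6, made by macrophages, had 3.76, 3.26 and 3.23 in CSD14, against 5.05, 7.66 and 7.66 in CSD5. It fell by 3.37 ± 0.58 (adjusted p = 0.0209), with -4.24 ± 0.19 without CSD5 replicate 1 (1.01e-05), and lost the call without CSD5 replicate 2 or 3 or any 1 CSD14 array (up to 0.0842). Ccl2, which attracts monocytes, had 2.54, 2.41 and 2.90 in CSD14, against 3.14, 5.71 and 4.80 in CSD5, at -1.93 ± 0.51 (adjusted p = 0.0899) and -2.64 ± 0.27 without that array (0.000937). Ccl3, which attracts several leukocyte types, had 2.47, 2.09 and 2.33 in CSD14, against 2.10, 4.79 and 4.83 in CSD5, at -1.61 ± 0.59 (adjusted p = 0.219) and -2.51 ± 0.14 without it (3.6e-05).

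The 3 that rose were Ccl28, Cxcl17 and Ccl5. Ccl28, a chemokine of mucosal epithelia, had 6.59, 6.77 and 6.82 in CSD14, against 5.07, 5.71 and 5.14 in CSD5, and rose by 1.42 ± 0.21 (adjusted p = 0.0112), by 1.30 ± 0.23 without CSD5 replicate 1 (0.0161), with the call lost without CSD14 replicate 3 (0.0561). Cxcl17, another mucosal chemokine, had 8.13, 8.58 and 8.23 in CSD14, against 5.48, 7.28 and 6.69 in CSD5. It rose by 1.83 ± 0.37 (adjusted p = 0.0364), by 1.33 ± 0.21 without CSD5 replicate 1 (0.00924), and lost the call without CSD5 replicate 3 or any 1 CSD14 or ND14 array (up to 0.114). Ccl5, which attracts T cells, had 5.43, 5.39 and 5.58 in CSD14, against 4.53, 4.82 and 4.22 in CSD5, and rose by 0.94 ± 0.18 (adjusted p = 0.0291), by 0.95 ± 0.20 without CSD5 replicate 1 (0.0375), with the call lost without CSD5 replicate 3, any 1 CSD14 array or ND14 replicate 2 (up to 0.109). All 3 CSD14 arrays lay above all 3 CSD5 arrays for each.

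Genes of striated muscle, whose products form and run the contractile apparatus of skeletal and heart muscle, were called only without CSD5 replicate 1 or another CSD5 array. With all arrays limma called 0 of 60. At an unadjusted p under 0.05, 23 were lower and 1 higher, where 4.66% of all genes were lower and 14.0% higher, and without CSD5 replicate 1 they were 25 and 1, where 4.73% and 17.8% of all genes were. With all arrays 47 had a negative log2 fold change around a median of -0.29. Without CSD5 replicate 1, 16 fell and 0 rose, where 1.62% and 3.54% of all genes did, and the median was -0.36. The number called was 1 without CSD5 replicate 2 or 3. The list mean was 3.23, 3.16 and 3.22 in CSD14, against 3.34, 3.95 and 3.64 in CSD5, and CSD5 replicate 1 lay within the CSD14 range for 31 of the 60. For 10 genes all 3 CSD5 arrays lay above all 3 CSD14 arrays, a state found for 5.19% of all genes. Acta1, skeletal muscle actin, had 5.74, 5.47 and 4.61 in CSD14, against 5.80, 9.08 and 8.72 in CSD5, with an ND14 mean of 5.89, at -2.59 ± 0.71 (adjusted p = 0.0994) and -3.63 ± 0.28 without CSD5 replicate 1 (0.000208). Tnnc2, the calcium sensor of fast muscle, had 3.16, 3.35 and 3.05 in CSD14, against 3.47, 5.82 and 5.44 in CSD5, at -1.72 ± 0.48 (adjusted p = 0.106) and -2.44 ± 0.15 (5.11e-05). Myog, a transcription factor of muscle differentiation, had 2.89, 2.55 and 2.75 in CSD14, against 2.41, 5.05 and 4.77 in CSD5, at -1.35 ± 0.55 (adjusted p = 0.27) and -2.18 ± 0.15 (0.000122). In these genes CSD5 replicates 2 and 3 stood alone, above CSD14, CSD5 replicate 1 and ND14.

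Fibroblast genes as a list were centred near 0. Of 33, 1 rose and 0 fell, where 2.48% and 0.69% of all genes did, with a median of 0.07. Without CSD5 replicate 1, 2 rose and 3 fell, where 3.54% and 1.62% of all genes did, with a median of 0.05. Dcn, a small proteoglycan of connective tissue, had 3.29, 2.56 and 3.29 in CSD14, against 3.29, 6.63 and 4.99 in CSD5, at -1.92 ± 0.65 (adjusted p = 0.178) and -2.76 ± 0.41 without CSD5 replicate 1 (0.00769). Col1a1, a fibrillar collagen, had 3.44, 3.40 and 3.84 in CSD14, against 3.46, 3.44 and 3.26 in CSD5, at 0.17 ± 0.13 (adjusted p = 0.571) and 0.21 ± 0.15 without that array (0.456). Col3a1, another, had 2.80, 2.82 and 2.93 in CSD14, against 2.80, 2.80 and 2.80 in CSD5, at 0.05 ± 0.10 (adjusted p = 0.846) and 0.05 ± 0.11 without it (0.829). The list mean of fibroblast genes overlapped between the groups in the plot of list levels. The part that carried-over macrophages, muscle or connective tissue had in the Mmp12, Ccl6 and Acta1 differences was not tested.

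**Figure D4:**
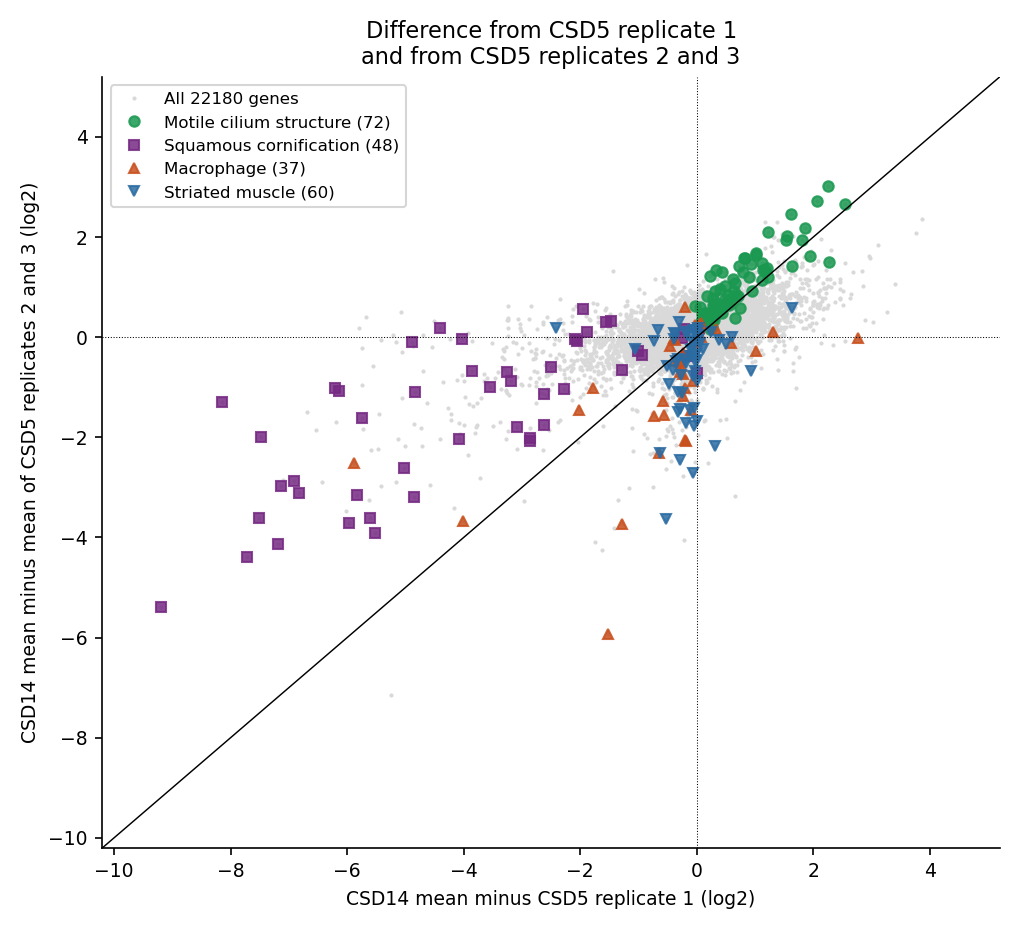
For each of 22180 genes, the CSD14 mean minus CSD5 replicate 1 (horizontal axis, log2) against the CSD14 mean minus the mean of CSD5 replicates 2 and 3 (vertical axis, log2), with 4 gene lists marked and a diagonal line of equal difference. Motile cilium genes lie above 0 on the vertical axis and most on the horizontal axis too, squamous genes reach farther from 0 on the horizontal axis, and many macrophage and striated muscle genes lie near 0 on the horizontal axis and below 0 on the vertical axis.

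The list mean of squamous genes was lower in all CSD14 arrays than in all CSD5 arrays, with CSD5 replicate 1 the highest. Of 48 cornification genes 20 fell and 0 rose, where 0.69% and 2.48% of all genes did, with a median log2 fold change of -1.95. Without CSD5 replicate 1, 25 fell, where 1.62% of all genes did, with a median of -1.05. Of the 20, 10 passed with any array left out, and the number called was 11, 11 and 10 without CSD14 replicates 1, 2 and 3. The list mean was 4.34, 4.28 and 4.4 in CSD14, against 8.28, 6.0 and 5.66 in CSD5 and 8.30 to 8.47 in ND14. Krt16, a keratin of activated and stratified epithelium, had 5.34, 5.45 and 5.12 in CSD14, against 10.83, 9.49 and 8.92 in CSD5, and fell by 4.44 ± 0.38 (adjusted p = 0.00128), with -3.90 ± 0.18 without CSD5 replicate 1 (1.15e-05). Lce3a, a late cornified envelope protein, had 2.93, 3.11 and 3.49 in CSD14, against 12.37, 8.89 and 8.25 in CSD5, and fell by 6.66 ± 0.84 (adjusted p = 0.0052), with -5.39 ± 0.21 without that array (4.2e-06). Both passed with any array left out. In contrast, Ivl, the envelope precursor involucrin, had 6.04, 5.85 and 5.69 in CSD14, against 5.86, 6.77 and 6.40 in CSD5, at -0.48 ± 0.21 (adjusted p = 0.298) and -0.72 ± 0.16 without it (0.0427).

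Basal cell genes gave smaller differences. Of 18, 3 fell, where 0.69% of all genes did, with a median of -0.63. Without CSD5 replicate 1, 6 fell, where 1.62% of all genes did, with a median of -0.48. Leaving out any 1 CSD14 array left 1 called. Krt14, the basal keratin, had 10.20, 10.29 and 10.26 in CSD14, against 11.47, 10.97 and 10.93 in CSD5, and fell by 0.87 ± 0.14 (adjusted p = 0.0172), with -0.70 ± 0.10 without CSD5 replicate 1 (0.00727), with the call lost without any 1 CSD14 array (up to 0.0813). Trp63, the transcription factor of basal cells, had 6.53, 6.53 and 6.52 in CSD14, against 7.16, 6.94 and 6.99 in CSD5, with no overlap, at -0.50 ± 0.11 (adjusted p = 0.0538) and -0.44 ± 0.12 without that array (0.081). Dsg3, a desmosomal cadherin of stratified epithelium, had 6.19, 6.27 and 6.35 in CSD14, against 9.51, 8.14 and 8.15 in CSD5, and fell by 2.33 ± 0.31 (adjusted p = 0.00675), with -1.88 ± 0.11 without CSD5 replicate 1 (4.51e-05), passing with any array left out.

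Lipid enzymes gave a related order. The mean over 19 cholesterol synthesis genes was 6.56, 6.58 and 6.55 in CSD14, against 7.92, 6.88 and 6.81 in CSD5 and 7.98 to 8.07 in ND14. None of the 19 was called with limma, 8 were lower and 0 higher at an unadjusted p under 0.05, where 4.66% and 14.0% of all genes were, and 18 had a negative log2 fold change around a median of -0.59. In the fit without CSD5 replicate 1, 3 fell, where 1.62% of all genes did, and the median was -0.24. At an unadjusted p in that fit 7 were lower and 0 higher, where 4.73% and 17.8% of all genes were. Elovl4, an elongase of very long fatty acids used in the skin barrier, had 2.64, 3.08 and 3.07 in CSD14, against 9.37, 5.85 and 5.81 in CSD5, and fell by 4.08 ± 0.77 (adjusted p = 0.0291), with -2.90 ± 0.17 without CSD5 replicate 1 (4.5e-05), with the call lost without any 1 CSD14 or ND14 array (up to 0.122). Fasn, the fatty acid synthase, had 9.15, 9.18 and 9.21 in CSD14, against 9.95, 9.79 and 9.93 in CSD5, and fell by 0.71 ± 0.10 (adjusted p = 0.00762), with -0.68 ± 0.11 without that array (0.0103), passing with any array left out.

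Of 72 motile cilium genes, for axonemal dyneins, radial spokes, tubulin-associated and other ciliary proteins, 32 rose, 0 fell and 40 were not called. Over all genes 2.48% rose and 0.69% fell, and the list median log2 fold change was 0.78. Without CSD5 replicate 1, 45 rose, where 3.54% of all genes did, with a median of 0.88. All 72 log2 fold changes were above 0, and for 58 the 3 CSD14 arrays lay above the 3 CSD5 arrays, where 15.5% of all genes did so. The list mean was 4.42, 4.41 and 4.36 in CSD14, against 3.66, 3.55 and 3.15 in CSD5 and 3.63 to 3.75 in ND14. The number of members called was smallest without CSD14 replicate 1, at 16, and 20 without CSD14 replicate 3, and 14 passed with any array left out.

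Cdhr4, a cadherin-related protein of ciliated cells, had 7.15, 6.89 and 7.24 in CSD14, against 4.84, 4.33 and 3.83 in CSD5. It rose by 2.76 ± 0.22 (adjusted p = 0.00117), by 3.01 ± 0.17 without CSD5 replicate 1 (3.79e-05). Tppp3, a tubulin polymerization protein, had 7.71, 7.75 and 7.46 in CSD14, against 5.58, 5.66 and 4.16 in CSD5, and rose by 2.51 ± 0.33 (adjusted p = 0.00679), by 2.73 ± 0.35 without that array (0.0033). Both passed with any array left out, and CSD5 replicate 3 was the lowest array for each. Drc1, a subunit of the nexin-dynein regulatory complex, had 4.79, 4.79 and 4.64 in CSD14, against 3.85, 3.67 and 3.39 in CSD5, and rose by 1.10 ± 0.13 (adjusted p = 0.00392), by 1.21 ± 0.13 without CSD5 replicate 1 (0.00108), also with any array left out. Dnah5, an outer arm dynein heavy chain, had 3.45, 3.12 and 3.27 in CSD14, against 2.70, 2.57 and 2.48 in CSD5, close to the array medians, and rose by 0.70 ± 0.12 (adjusted p = 0.018), by 0.76 ± 0.12 without CSD5 replicate 1 (0.0123), with the call lost without CSD5 replicate 3 or CSD14 replicate 1 or 3 (up to 0.076).

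Of 20 regulators that switch on multiciliated cell genes, 2 rose, where 2.48% of all genes did. Without CSD5 replicate 1, 1 rose, where 3.54% of all genes did. At an unadjusted p under 0.05 with all arrays 5 were higher, where 14.0% of all genes were. None passed with any array left out, and the median was 0.16. Foxj1, the transcription factor for motile cilia, had 5.67, 6.11 and 5.75 in CSD14, against 4.87, 5.33 and 4.87 in CSD5, with no overlap. It rose by 0.82 ± 0.17 (adjusted p = 0.0412), had 0.74 ± 0.19 without CSD5 replicate 1 (0.0634), and kept the call only without CSD5 replicate 2 (up to 0.125 in the other fits). Gmnc, which starts the program through E2F factors, had 4.36, 3.70 and 4.47 in CSD14, against 2.77, 3.22 and 2.73 in CSD5, and rose by 1.27 ± 0.24 (adjusted p = 0.027), by 1.20 ± 0.27 without CSD5 replicate 1 (0.0407), with the call lost without CSD5 replicate 3, CSD14 replicate 1 or 3, or ND14 replicate 3 (up to 0.118). Mcidas, its relative, had 4.34, 4.31 and 4.38 in CSD14, against 4.03, 4.29 and 3.53 in CSD5, at 0.39 ± 0.17 (adjusted p = 0.302) and 0.43 ± 0.20 without that array (0.252).

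**Figure D5:**
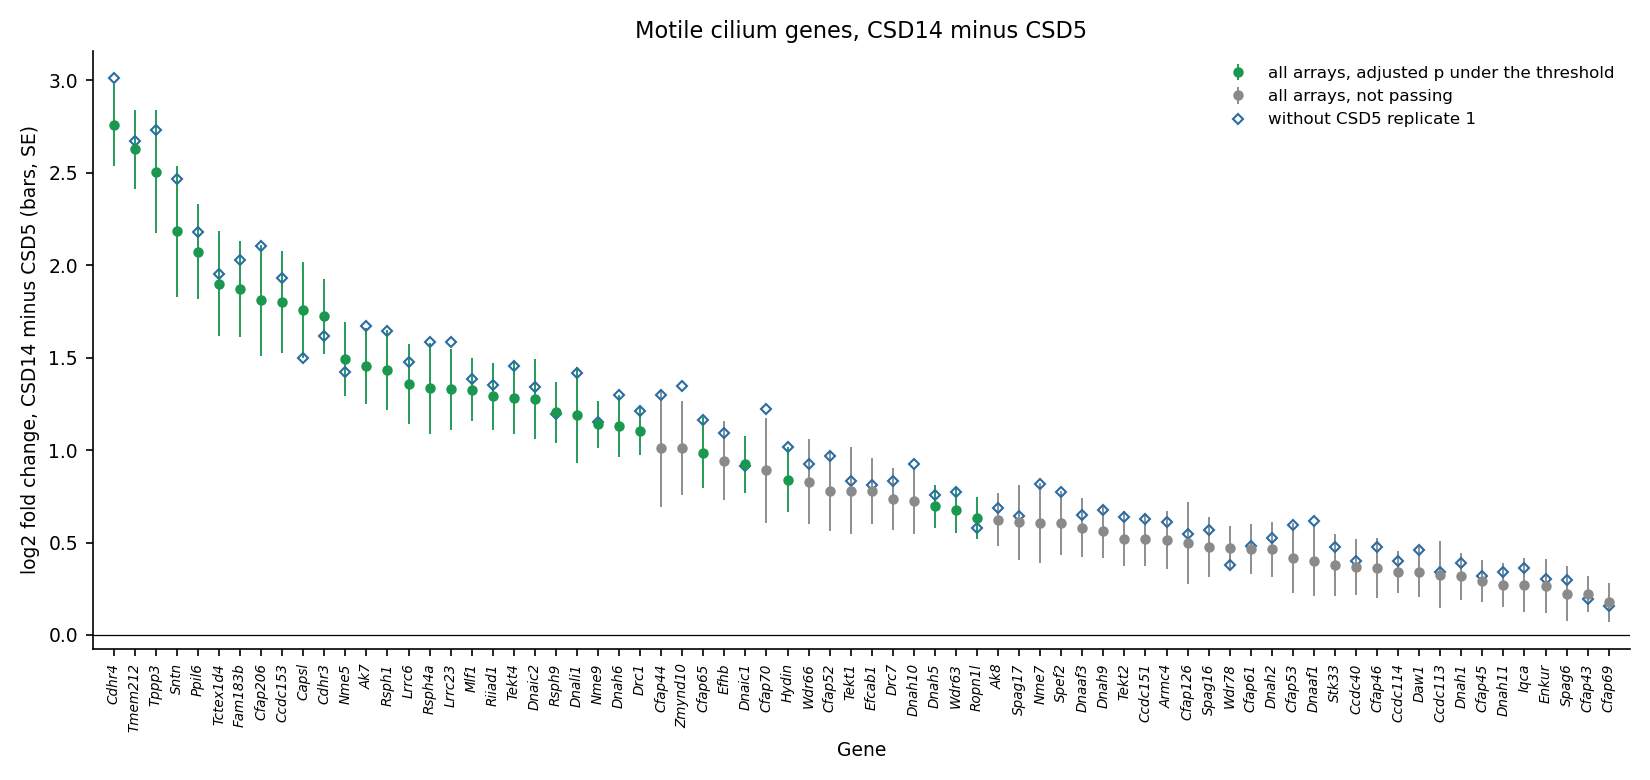
Log2 fold change of CSD14 over CSD5 for each of 72 motile cilium genes, ordered by size, with bars for the standard error, filled points for the fit of all arrays and open diamonds for the fit without CSD5 replicate 1. All 72 points are above 0, the 32 that passed are coloured, and Cdhr4 is the highest at 2.76.

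Many ciliary genes carry an X-box, the site read by RFX transcription factors, near their start. The letters GTNNCC, followed by any 3 bases and then GNAAC, were searched on both strands of RefSeq promoters of the GRCm38.p6 build, 250 bases before to 50 after each start site. They were found for 461 of 16990 genes on the arrays with a promoter there (2.71%) and for 15 of 58 motile cilium genes (25.9%), of which 4 of 25 that rose (16%) and 11 of 33 that did not pass (33.3%). The 4 that rose were Ppil6, Cfap206, Tekt4 and Hydin, and their sites are shown because these promoters hold the shared letters in members that were higher in CSD14. Each stretch is read along the gene, 5′ to 3′, with the match in capitals, and the match of Ppil6, Cfap206 and Hydin is on the opposite strand. Tekt4 has 2 matches, of which the first is shown. A match in the letters does not show that a factor binds there.
Ppil6 (chr10:41490385-41490484): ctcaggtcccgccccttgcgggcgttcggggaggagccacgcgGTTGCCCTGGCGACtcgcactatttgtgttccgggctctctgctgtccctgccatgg
Cfap206 (chr4:34730173-34730272): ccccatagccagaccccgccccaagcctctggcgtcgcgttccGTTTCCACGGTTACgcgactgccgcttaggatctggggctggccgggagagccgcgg
Tekt4 (chr17:25471387-25471486): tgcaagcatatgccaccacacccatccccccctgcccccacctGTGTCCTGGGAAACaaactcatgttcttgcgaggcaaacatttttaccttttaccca
Hydin (chr8:110266913-110267012): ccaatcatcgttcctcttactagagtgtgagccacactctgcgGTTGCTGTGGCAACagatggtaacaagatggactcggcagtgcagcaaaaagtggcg

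Counted from the start site as position 0, the match began at -11 in Ppil6, at -23 in Cfap206, at -160 in Tekt4 and at -21 in Hydin. Ppil6, a cyclophilin-like protein, had log2 signals of 5.35, 5.36 and 5.45 in CSD14, against 3.53, 3.74 and 2.67 in CSD5, and rose by 2.07 ± 0.26 (adjusted p = 0.00473), by 2.18 ± 0.28 without CSD5 replicate 1 (0.00371), passing with any array left out. Cfap206, a protein of the radial spoke base, had 7.14, 7.30 and 7.03 in CSD14, against 5.93, 5.56 and 4.55 in CSD5, and rose by 1.81 ± 0.30 (adjusted p = 0.018), by 2.10 ± 0.27 without that array (0.00363), with the call lost without any 1 CSD14 array (up to 0.0801). Tekt4, a tektin inside ciliary microtubules, had 4.06, 4.08 and 4.18 in CSD14, against 3.17, 3.0 and 2.30 in CSD5, and rose by 1.28 ± 0.19 (adjusted p = 0.0117), by 1.46 ± 0.18 without CSD5 replicate 1 (0.00319), lost without CSD14 replicate 1 or 3 (up to 0.0572). Hydin, a protein of the central pair of microtubules, had 4.96, 4.84 and 4.80 in CSD14, against 4.38, 4.08 and 3.62 in CSD5, and rose by 0.84 ± 0.18 (adjusted p = 0.0409), by 1.02 ± 0.15 without CSD5 replicate 1 (0.00808), with the call lost when any other array was left out (up to 0.154). The CSD14 and CSD5 arrays did not overlap for any of the 4.

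Of 26 club and secretory genes 3 rose, 1 fell and 22 were not called, with a median of 0.29, where 2.48% of all genes rose and 0.69% fell. Without CSD5 replicate 1, 5 rose and 2 fell, where 3.54% and 1.62% of all genes did, with a median of 0.28. The number called was 1 without CSD14 replicate 1 or 2 and 2 without CSD14 replicate 3 or CSD5 replicate 3. Scgb1a1, the main club cell secretory protein, had 7.58, 7.46 and 7.51 in CSD14, against 6.42, 6.63 and 6.63 in CSD5, with an ND14 mean of 6.28. It rose by 0.96 ± 0.11 (adjusted p = 0.00392), by 0.89 ± 0.12 without CSD5 replicate 1 (0.00399), passing with any array left out. Scgb3a1, a related secretoglobin, had 10.56, 10.59 and 10.43 in CSD14, against 9.58, 10.0 and 9.36 in CSD5. It rose by 0.88 ± 0.16 (adjusted p = 0.0273), by 0.85 ± 0.19 without that array (0.04), and lost the call without CSD5 replicate 3, any 1 CSD14 array, or ND14 replicate 1 or 3 (up to 0.11). Cyp2f2, the cytochrome typical of mouse club cells, differed little, at 11.26, 11.23 and 11.20 in CSD14, against 10.83, 11.14 and 11.14 in CSD5, at 0.19 ± 0.12 (adjusted p = 0.457) and 0.09 ± 0.11 without CSD5 replicate 1 (0.664). Retnla, a secreted resistin-like protein of alternatively activated macrophages and of epithelium, was the gene that fell, with 4.61, 4.53 and 4.33 in CSD14, against 5.58, 6.75 and 6.79 in CSD5, at -1.88 ± 0.30 (adjusted p = 0.0144), and at -2.28 ± 0.17 without CSD5 replicate 1 (0.000191), lost without CSD5 replicate 3 or any 1 CSD14 array (up to 0.0655).

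Goblet cell genes split. Muc5b, the gel-forming mucin of normal mouse airways, had 5.14, 5.16 and 5.23 in CSD14, against 6.74, 6.64 and 6.04 in CSD5, and fell by 1.30 ± 0.17 (adjusted p = 0.00596), with -1.16 ± 0.16 without CSD5 replicate 1 (0.00573). Fcgbp, a mucus-bound glycoprotein, had 5.39, 5.63 and 5.52 in CSD14, against 4.46, 4.46 and 3.78 in CSD5, and rose by 1.28 ± 0.19 (adjusted p = 0.0103), by 1.39 ± 0.20 without that array (0.006). Both passed with any array left out, and they were the only ones of 18 called. Muc5ac, the mucin induced in goblet cell metaplasia, had 3.99, 3.62 and 3.5 in CSD14, against 4.74, 4.04 and 3.58 in CSD5, at -0.42 ± 0.26 (adjusted p = 0.473) and -0.11 ± 0.19 (0.775).

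Enzymes that handle foreign and reactive compounds rose in part. Of 45, 4 rose and 0 fell, where 2.48% and 0.69% of all genes did, with a median of 0.23. Without CSD5 replicate 1, 9 rose, where 3.54% of all genes did, with a median of 0.28. Fmo1, a flavin monooxygenase, had 5.27, 4.90 and 5.23 in CSD14, against 3.64, 3.71 and 3.53 in CSD5, with an ND14 mean of 3.59. It rose by 1.51 ± 0.17 (adjusted p = 0.00351), by 1.51 ± 0.20 without CSD5 replicate 1 (0.00393). Aldh3b1, an aldehyde dehydrogenase, had 6.33, 6.76 and 6.55 in CSD14, against 5.14, 5.59 and 5.41 in CSD5, and rose by 1.17 ± 0.15 (adjusted p = 0.00641), by 1.05 ± 0.15 without that array (0.00631). Both passed with any array left out. Cyp1a1, induced by smoke constituents through the aryl hydrocarbon receptor, had 3.70, 2.88 and 3.73 in CSD14, against 3.70, 4.27 and 4.47 in CSD5, at -0.71 ± 0.29 (adjusted p = 0.266) and -0.93 ± 0.29 without CSD5 replicate 1 (0.11), so no change was called in it. Slc7a11, the cystine importer that feeds glutathione synthesis, was the only one of 27 antioxidant genes called, at 9.07, 8.90 and 9.03 in CSD14, against 10.65, 9.96 and 10.01 in CSD5, and fell by 1.21 ± 0.18 (adjusted p = 0.0114), with -0.98 ± 0.13 without CSD5 replicate 1 (0.00387), lost without CSD14 replicate 1 (0.0506).

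The list mean of genes that rise when oxygen is low was higher in all CSD14 arrays than in all CSD5 arrays. Of 26 glycolysis and hypoxia genes 8 rose and 0 fell, where 2.48% and 0.69% of all genes did. The median log2 fold change was 0.33. Without CSD5 replicate 1, 11 rose, where 3.54% of all genes did, with a median of 0.39. The number called was 4 without CSD14 replicate 1 or 2 or ND14 replicate 1, 5 without CSD5 replicate 2 or 3, and 4 of the 8 passed with any array left out. The list mean was 7.79, 7.76 and 7.72 in CSD14, against 7.36, 7.32 and 7.24 in CSD5 and 7.32 to 7.42 in ND14. Adm, the peptide hormone adrenomedullin, had 10.73, 10.74 and 10.86 in CSD14, against 9.17, 9.40 and 9.33 in CSD5, with an ND14 mean of 9.08. It rose by 1.48 ± 0.13 (adjusted p = 0.00128), by 1.41 ± 0.14 without CSD5 replicate 1 (0.00076). Bnip3, a mitophagy receptor, had 6.0, 6.02 and 5.70 in CSD14, against 5.02, 4.87 and 4.68 in CSD5, with an ND14 mean of 5.35. It rose by 1.05 ± 0.13 (adjusted p = 0.00447), by 1.13 ± 0.13 without CSD5 replicate 1 (0.00228). Both passed with any array left out, with CSD5 replicate 1 close to the other CSD5 arrays. Hk2, the inducible hexokinase, had 5.27, 5.37 and 5.50 in CSD14, against 5.84, 5.09 and 4.85 in CSD5, and was not called, at 0.12 ± 0.22 (adjusted p = 0.831) and 0.41 ± 0.13 without CSD5 replicate 1 (0.127).

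P4ha1 and P4ha2, the catalytic subunits of prolyl hydroxylase, were on the glycolysis and hypoxia list and both rose. P4ha2 had 7.21, 6.99 and 7.22 in CSD14, against 5.76, 6.07 and 5.73 in CSD5, and rose by 1.29 ± 0.13 (adjusted p = 0.00243), by 1.24 ± 0.15 without CSD5 replicate 1 (0.0023). P4ha1 had 7.13, 6.88 and 7.09 in CSD14, against 5.81, 6.21 and 6.09 in CSD5, and rose by 1.0 ± 0.14 (adjusted p = 0.00813), by 0.88 ± 0.14 (0.00878). Lox, the lysyl oxidase that starts collagen cross-links and was on the fibroblast list, had 3.89, 3.29 and 3.83 in CSD14, against 2.82, 2.36 and 2.07 in CSD5, and rose by 1.25 ± 0.21 (adjusted p = 0.0192), by 1.46 ± 0.19 without that array (0.00399), lost without CSD5 replicate 3 or CSD14 replicate 1 or 3 (up to 0.0908). Of 33 collagen chains 1 rose and 0 fell, where 2.48% and 0.69% of all genes did, and the list median was 0.02. The 1 called, Col15a1 of basement membrane zones, had 4.50, 4.55 and 4.78 in CSD14, against 3.62, 3.62 and 3.21 in CSD5. It rose by 1.13 ± 0.15 (adjusted p = 0.00612), by 1.20 ± 0.16 without CSD5 replicate 1 (0.00427). The prolyl hydroxylases and Col15a1 passed with any array left out, and the ND14 mean of Col15a1 was 3.39.

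Alad, an enzyme of heme synthesis, and Pon1 were among the genes that passed with any array left out. Alad had 10.23, 10.15 and 10.18 in CSD14, against 8.33, 8.37 and 8.19 in CSD5, with an ND14 mean of 8.19. It rose by 1.89 ± 0.11 (adjusted p = 0.000356), by 1.91 ± 0.13 without CSD5 replicate 1 (9.94e-05), passing with any array left out. Pon1, a paraoxonase that hydrolyses lactones and organophosphates, had 7.99, 7.74 and 7.86 in CSD14, against 3.99, 5.84 and 5.17 in CSD5. CSD5 replicate 1 was the lowest of its group, and the ND14 mean was 3.71. Pon1 rose by 2.86 ± 0.37 (adjusted p = 0.00609), by 2.36 ± 0.21 without CSD5 replicate 1 (0.000376), also with any array left out.

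Interferon-stimulated genes were lowest in CSD5 replicate 1 among the arrays compared, on the list mean. It was 6.28, 6.37 and 6.29 in CSD14, against 5.2, 6.15 and 6.11 in CSD5 and 4.84 to 5.06 in ND14. Of 32 genes 2 rose and 0 fell, where 2.48% and 0.69% of all genes did, with a median of 0.53. Without CSD5 replicate 1, 4 rose and 1 fell, where 3.54% and 1.62% of all genes did, with a median of 0.24. At an unadjusted p under 0.05 with all arrays 16 were higher and 1 lower, where 14.0% and 4.66% of all genes were. Leaving out CSD5 replicate 1 made these 10 and 2, where 17.8% and 4.73% of all genes were. Irf7, the factor that amplifies interferon production, had 8.45, 8.51 and 8.41 in CSD14, against 6.37, 7.50 and 7.59 in CSD5, and rose by 1.30 ± 0.27 (adjusted p = 0.0393), by 0.91 ± 0.11 without CSD5 replicate 1 (0.00211), lost without any 1 CSD14 or ND14 array (up to 0.135). Isg15, a ubiquitin-like protein, had 9.43, 9.33 and 9.34 in CSD14, against 8.12, 9.22 and 9.10 in CSD5, at 0.55 ± 0.24 (adjusted p = 0.301) and 0.21 ± 0.11 (0.315). Psmb9, a catalytic subunit of the immunoproteasome that cuts peptides for MHC class I, had 7.27, 7.47 and 7.25 in CSD14, against 5.44, 6.31 and 6.02 in CSD5. It rose by 1.41 ± 0.20 (adjusted p = 0.00871), by 1.17 ± 0.14 without CSD5 replicate 1 (0.00288), passed with any array left out, and was 1 of 3 of 17 class I genes that rose, the only 1 called without any 1 CSD14 array. Of 10 MHC class II genes only Ctss was called, and the chain genes themselves were not.

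Of 34 cytokines of the interleukin group, 3 fell and 1 rose, where 0.69% and 2.48% of all genes did. Without CSD5 replicate 1, 4 fell and 1 rose, where 1.62% and 3.54% of all genes did. None was called without CSD14 replicate 2 or 3. Il1a, an epithelial alarm cytokine, had 3.87, 3.02 and 3.03 in CSD14, against 5.84, 5.89 and 4.44 in CSD5, with an ND14 mean of 5.85, and fell by 2.08 ± 0.37 (adjusted p = 0.0234), with -1.86 ± 0.39 without CSD5 replicate 1 (0.0339), lost without CSD5 replicate 2 or CSD14 replicate 2 or 3 (up to 0.093). Il18, stored in epithelium and released through inflammasomes, had 3.97, 3.13 and 3.64 in CSD14, against 8.29, 6.01 and 5.50 in CSD5, and fell by 3.02 ± 0.58 (adjusted p = 0.031), with -2.17 ± 0.24 without that array (0.00141), lost without any 1 CSD14 or ND14 array (up to 0.101). Il1b and Il6, inflammatory cytokines, stayed under or near the array medians. Il1b had 2.57, 2.36 and 2.62 in CSD14, against 2.98, 2.57 and 2.57 in CSD5, at -0.19 ± 0.17 (adjusted p = 0.634) and -0.05 ± 0.17 without CSD5 replicate 1 (0.878). Il6 had 1.83, 1.88 and 1.76 in CSD14, against 1.84, 2.03 and 1.85 in CSD5, at -0.08 ± 0.12 (adjusted p = 0.777) and -0.12 ± 0.13 without it (0.643). Icam1, an adhesion protein induced by NF-kB, had 8.72, 8.87 and 8.82 in CSD14, against 7.89, 8.88 and 8.69 in CSD5, at 0.32 ± 0.22 (adjusted p = 0.52) and 0.02 ± 0.12 without CSD5 replicate 1 (0.941), and of 24 genes on the NF-kB list only Ptgs2 was called.

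Enzymes of lipid mediators gave clear calls in both directions, 3 higher and 3 lower of 27, where 2.48% and 0.69% of all genes were. Without CSD5 replicate 1 these were 3 and 4, where 3.54% and 1.62% of all genes were called. Ptgs2, the inducible cyclooxygenase, had 6.10, 5.71 and 5.50 in CSD14, against 7.38, 7.56 and 7.52 in CSD5, and fell by 1.72 ± 0.17 (adjusted p = 0.00193), with -1.77 ± 0.19 without that array (0.00118). Alox5ap, which presents arachidonic acid to 5-lipoxygenase, had 5.65, 5.64 and 5.87 in CSD14, against 4.49, 4.88 and 4.66 in CSD5, and rose by 1.04 ± 0.13 (adjusted p = 0.00532), by 0.95 ± 0.13 (0.00559). Alox15, a lipoxygenase of resolving mediators, had 8.24, 8.31 and 8.35 in CSD14, against 4.53, 6.15 and 6.27 in CSD5, and rose by 2.65 ± 0.38 (adjusted p = 0.00931), by 2.09 ± 0.15 (0.000114). The 3 genes passed with any array left out, and CSD5 replicate 1 lay with the other CSD5 arrays for Ptgs2 but below them for Alox15.

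Cell division genes gave no call with all arrays. Of 41 mitosis genes, 0 passed in limma, with 4 higher and 0 lower at an unadjusted p under 0.05, where 14.0% of all genes were higher. With CSD5 replicate 1 left out, 5 rose and 20 were higher at an unadjusted p, where 17.8% of all genes were. The list mean was 5.67, 5.62 and 5.64 in CSD14, against 5.79, 5.37 and 5.31 in CSD5 and 5.76 to 5.95 in ND14. Mki67, the proliferation marker Ki-67, had 8.20, 8.13 and 8.03 in CSD14, against 8.47, 8.11 and 8.26 in CSD5, at -0.16 ± 0.15 (adjusted p = 0.646) and -0.07 ± 0.15 without that array (0.837). Cenpa, the centromeric histone, had 6.05, 5.93 and 6.11 in CSD14, against 6.17, 5.27 and 5.24 in CSD5, at 0.47 ± 0.22 (adjusted p = 0.34) and 0.78 ± 0.12 (0.00878). On the list mean CSD5 replicate 1 lay above all CSD14 arrays and the other CSD5 arrays lay below them. Of 29 DNA replication genes 0 passed in limma, with 9 higher and 0 lower at an unadjusted p under 0.05, where 14.0% and 4.66% of all genes were. Without CSD5 replicate 1, 2 of these rose, and 13 were higher and 0 lower at an unadjusted p, where 17.8% and 4.73% of all genes were.

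Among signalling genes, Stra6, the membrane receptor for retinol uptake, had 4.76, 4.37 and 4.78 in CSD14, against 5.66, 6.15 and 6.07 in CSD5. It fell by 1.32 ± 0.16 (adjusted p = 0.0047), with -1.47 ± 0.15 without CSD5 replicate 1 (0.000952), and passed with any array left out, the only 1 of 20 retinoid genes called. Hey1, a Notch target, had 8.19, 8.27 and 8.15 in CSD14, against 6.03, 6.99 and 7.25 in CSD5, and rose by 1.45 ± 0.27 (adjusted p = 0.0272), by 1.08 ± 0.15 without that array (0.00538), lost without any 1 CSD14 array or ND14 replicate 1 (up to 0.105). Notch1, the receptor, had 5.78, 6.0 and 5.85 in CSD14, against 6.62, 6.36 and 6.61 in CSD5, and fell by 0.65 ± 0.12 (adjusted p = 0.0243), with -0.61 ± 0.13 (0.0355), lost without CSD5 replicate 3 or CSD14 replicate 1 or 3 (up to 0.105). Tgfb2, a TGF-β ligand, had 6.58, 6.61 and 6.36 in CSD14, against 4.05, 5.37 and 5.33 in CSD5, and rose by 1.60 ± 0.31 (adjusted p = 0.0309), by 1.17 ± 0.15 without CSD5 replicate 1 (0.00343), lost without any 1 CSD14 or ND14 array (up to 0.122). Hey1 and Notch1 were the only 2 called of 30 Wnt and Notch genes, 28 missing the threshold around a median of -0.03. Over all genes 2.48% rose and 0.69% fell. Neither Hey1 nor Notch1 passed with any array left out. Tgfb2 was the only 1 called of 23 genes on the TGF-β list.

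The remaining markers of other cell types gave few calls. None of 12 neutrophil, 18 endothelial or 4 erythroid genes was called in limma with all arrays or without CSD5 replicate 1. At an unadjusted p under 0.05 with all arrays 2, 1 and 0 were higher and none lower, where 14.0% and 4.66% of all genes were. Without that array 1, 2 and 0 were higher and none lower, where 17.8% and 4.73% of all genes were. Of 16 lymphocyte genes limma called 0 with all arrays, with 2 higher and 1 lower at an unadjusted p under 0.05, where 14.0% and 4.66% of all genes were. With CSD5 replicate 1 left out, 1 rose and 1 fell. At an unadjusted p 4 were then higher and 1 lower, where 17.8% and 4.73% of all genes were.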

How the data were processed

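Organoid RNA was hybridised to 9 Affymetrix arrays. For each transcript cluster the authors deposited a log2 signal made in Transcriptome Analysis Console, with the algorithm not given in the sources used here. No further scaling was applied. Of 34472 clusters, 23521 carried 1 gene symbol, 1820 several and 9131 none in the platform annotation, and a gene with several clusters was represented by the one with the highest mean over 9 arrays. CSD14 was compared with CSD5 in a limma 3.58.1 model of 3 groups (R 4.3.3) with empirical Bayes moderation and Benjamini-Hochberg adjustment over all clusters. The fit was tested on simulated data in which all arrays had the same spread, so that test does not cover an array that stands apart, as CSD5 replicate 1 did. The number of arrays limits the precision, and an exact test of 3 against 3 could not pass.

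The 40 gene lists, the naming rule and the comparison were chosen with earlier results of these data known, and 1065 of 1146 list entries matched. Genes named are the 15 highest and 15 lowest fold changes of either fit, the first 5 genes and up to 4 with the smallest adjusted p of each list, and genes the study names for these arrays. Not all are printed. Outside that rule, Epcam, Ptprc, Slc34a2, Fabp4, Dcn, Myog, Tekt4 and Hydin were chosen after their values were seen. Array scan dates were not analysed. Plots used matplotlib 3.10.9 (Python 3.11.15).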

Additional observations from a re-analysis of the deposited data

How the results depend on the processing

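The counts of clusters called depended on how the spread was estimated and on single arrays, with 660 higher and 171 lower in the fit reported. A fit of only the 6 arrays compared gave 115 and 26, of which 140 clusters were also called in the 9-array fit, and a fit without moderation gave 148 and 34. Array weights, which gave CSD5 replicate 1 a weight of 0.329, gave 1833 and 681, and at the study's thresholds 209 higher against 330. Centring on array medians gave 288 lower and quantile normalization 324 lower. Over the fits that left out 1 array the counts ran between 174 and 988 higher and between 49 and 429 lower. Replicate numbers are shared between groups, but deviations of same-numbered CSD14 and CSD5 arrays correlated at 0.00639, 0.0647 and -0.0729, so the numbers were not taken to pair the arrays. With replicate number as a block 384 clusters were higher and 121 lower, 471 of them shared with the fit reported.

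Over the 40 lists, 72 genes rose and 48 fell. The fit of 6 arrays gave 17 and 12, the fit without moderation 15 and 11, array weights 124 and 141, and the fits that left out 1 array between 31 and 113 higher and between 19 and 117 lower. The causes were not tested. Several small differences changed sign: Col3a1 was at -0.0267 after median centring and -0.0244 after quantile normalization, Aqp5 at -0.0267 with array weights and between -0.0133 and 0.35 in the fits that left out 1 array, Cybb between -0.0183 and 1.42, Epcam at -0.0228 with array weights, and Hk2 between -0.085 and 0.41. None of these was called. With 3 arrays a group, a difference that was not called is not shown to be absent, and genes near the array medians give little signal above background.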
